A study of Mus musculus with 160 samples.

Results

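Sympathetic and mesenchymal cells that both express *Gata3* were compared in the aorta-gonads-mesonephros (AGM) region of the mouse embryo at E11.5. All embryos were Gata3-GFP +/-, that is, GFP was knocked into 1 of the *Gata3* alleles, and every group compared here shared this genotype. GFP-positive cells were sorted as *Gata3*+ SNS (sympathetic nervous system) cells by Ngfr on their surface and as *Gata3*+ mesenchymal cells (MC) by Pdgfrb. Each library was made from a pool of 20 cells. Of 160 pools in the series, 40 carried these labels. The comparison of levels uses the 32 pools that held over 500000 counts on genes and ERCC spike-in RNAs and whose raw counts of *Ngfr* and *Pdgfrb* went with the label: 15 of 20 SNS pools and 17 of 20 MC pools. The Gata3-GFP- SNS and Gata3-GFP- MC pools of the same stage, sorted by the same surface markers, are given beside them for 16 and 14 pools kept by the same limits. No label ties a pool to an embryo, so the p-values measure only the spread between these pools. A pool mixes 20 cells, and genes found in the same pool need not share a cell. For the same reason fewer cells of a type and less RNA per cell cannot be told apart.

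Sympathetic neurons and chromaffin cells come from trunk neural crest cells that gather beside the dorsal aorta. BMPs from the aortic wall start a set of transcription factors there, among them *Gata3*, *Hand2*, *Insm1* and *Isl1*, and these factors together turn on the enzymes that make noradrenaline. *Gata3* is needed for the survival and the catecholamine synthesis of these cells. The mesenchyme below and around the aorta is of mesodermal origin, holds the forming smooth muscle and pericytes of the vessel wall, and secretes growth factors and matrix to the neighbouring endothelium in which the first blood stem cells arise.

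The values are of 3 kinds. CPM is the count of a gene per 1000000 counts on genes in a pool, after TMM scaling of the pool's total, and is given as the median over the kept pools with the lowest and the highest pool. The log2 fold change by label comes from edgeR's quasi-likelihood test over the 18 SNS and 20 MC pools over the depth limit, including those whose markers went against the label, and a gene was called at an adjusted p under 0.01 with a change beyond 0.1. The log2 fold change of the kept pools is given as a description and supports no call, since those pools were chosen by their raw counts of *Ngfr* and *Pdgfrb*. The ± after a log2 fold change is an approximate standard error (SE). It is the absolute change divided by the square root of the test's F value.

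The markers separated the kept pools widely. *Ngfr*, the low-affinity neurotrophin receptor, had 469 raw counts (253 to 924) in SNS pools and 13 (1 to 75) in MC pools. *Pdgfrb*, the PDGF receptor of pericytes and fibroblasts, had 3 (0 to 21) in SNS pools and 1039 (727 to 1778) in MC pools. Because both genes were used for the sort and for the choice of pools, neither is counted in a gene list, and no fold change of them is given. Nearest to the limit among the kept SNS pools was a pool with 310 counts of *Ngfr* and 20 of *Pdgfrb*, and the nearest pool left out had 21 and 365. Among the MC pools the nearest kept had 75 counts of *Ngfr* and 1778 of *Pdgfrb*, and the nearest left out 1359 and 58.

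**Figure D1:**
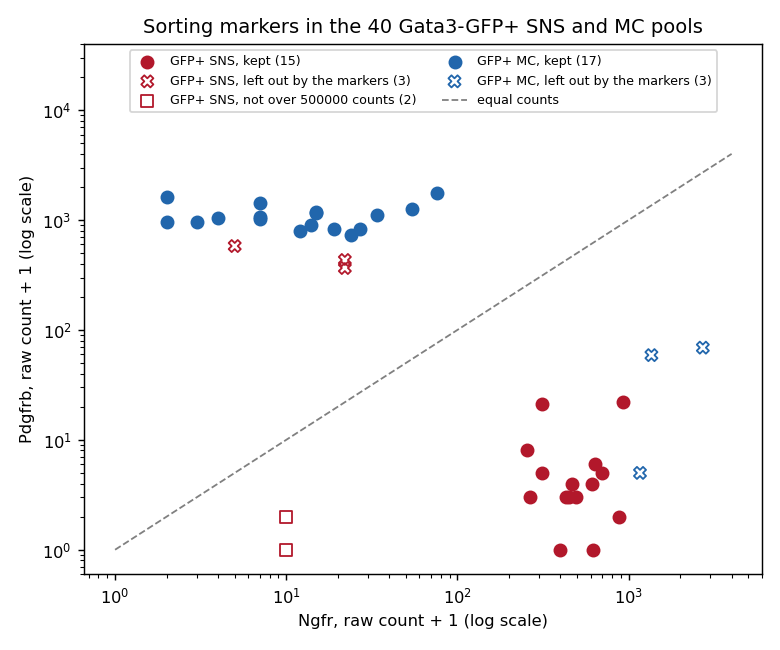
Raw counts plus 1 of *Ngfr* (x axis, log scale) and *Pdgfrb* (y axis, log scale) in the 40 Gata3-GFP+ pools, red for SNS and blue for MC labels; filled circles are kept pools, crosses pools left out by the markers, squares pools at or under 500000 counts, and the dashed line equal counts. The 3 libraries of each label that were left out lie on the far side of the line, with 365 to 579 counts of *Pdgfrb* under the SNS label and 1165 to 2715 counts of *Ngfr* under the MC label.

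Several libraries went against their labels in more genes than the 2 sorting markers. In the 3 libraries labelled *Gata3*+ SNS that were left out, the sympathetic factor *Tlx2* lay between 1.17 and 3.57 CPM and *Sox10* between 0.278 and 5.71 CPM, while the mesenchymal factor *Prrx1* lay between 296 and 381 CPM. Their *Gata3* level, 10.4 to 25.0 CPM, was below that of every kept SNS pool. The 3 libraries labelled *Gata3*+ MC had *Tlx2* at 37.5 to 89.0 CPM, *Sox10* at 356 to 529 CPM and *Prrx1* at 4.42 to 26.3 CPM. Among the GFP- pools, too, 3 libraries of each label went against the markers. Those labelled GFP- MC had *Gata3* at 126 to 407 CPM and *Tlx2* at 330 to 494 CPM, near the kept GFP+ SNS pools, and those labelled GFP- SNS had *Gata3* at 46.0 to 51.8 CPM, inside the range of the kept GFP+ MC pools. Of the 3 labelled GFP+ SNS, 2 lay inside the *Gata3* range of the kept GFP- MC pools, 2.57 to 19.7 CPM. The libraries labelled GFP+ MC lay in the *Tlx2* range of the kept GFP- SNS pools, 8.04 to 116 CPM. By these levels most of the libraries were like the population of the other marker and the other GFP sort. Under each of the labels these 3 libraries were the last of the 20 columns in the deposited order, at places 18 to 20. Whether libraries or columns were exchanged was not tested. Every fold change and p-value by label between GFP+ SNS and MC pools includes the 3 such libraries of each GFP+ label under their given labels. Differences between sorts by label include all of these 12 libraries. A further 2 SNS pools had 72832 and 96343 counts on genes and were left out for depth. Calls and adjusted p-values are therefore given by label, and CPM levels for the kept pools.

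The kept SNS pools held 3186865 to 6541797 counts on genes and the kept MC pools 2646033 to 8942715. At least 10 counts were found for 12126 to 14241 genes in SNS pools and for 12021 to 14496 in MC pools. By label the mean was 13144 ± 604 genes (SD, n = 18) against 13114 ± 618 (n = 20), a difference of 29.7 genes with p = 0.876 in a two-sided permutation test. The count on genes per count on ERCC RNAs was higher in SNS pools: its log2 value was 7.39 ± 0.52 (SD, n = 18) by label against 6.82 ± 0.20 (n = 20), p = 8.0e-05 in the permutation test, and 7.56 ± 0.35 (n = 15) against 6.80 ± 0.19 (n = 17) in the kept pools. Its part in the differences below was not tested.

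Of 16354 genes tested by label, 2080 were called higher and 2110 lower in *Gata3*+ SNS pools, so that 12.7% of tested genes were higher, 12.9% lower and 25.6% called either way. With ERCC counts for scaling the calls were 7296 higher and 932 lower, and the median change over all genes moved from -0.01 to 0.67 on the log2 scale, so all changes here are relative to the genes' own total. In the kept pools, every SNS pool lay above every MC pool for 522 genes (3.19%) and below for 677 genes (4.14%), 7.33% in all. Of the 4190 genes called by label, none had the opposite sign in the kept pools. Since the kept pools are part of the pools tested by label, this is no independent check of the calls.

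**Figure D2:**
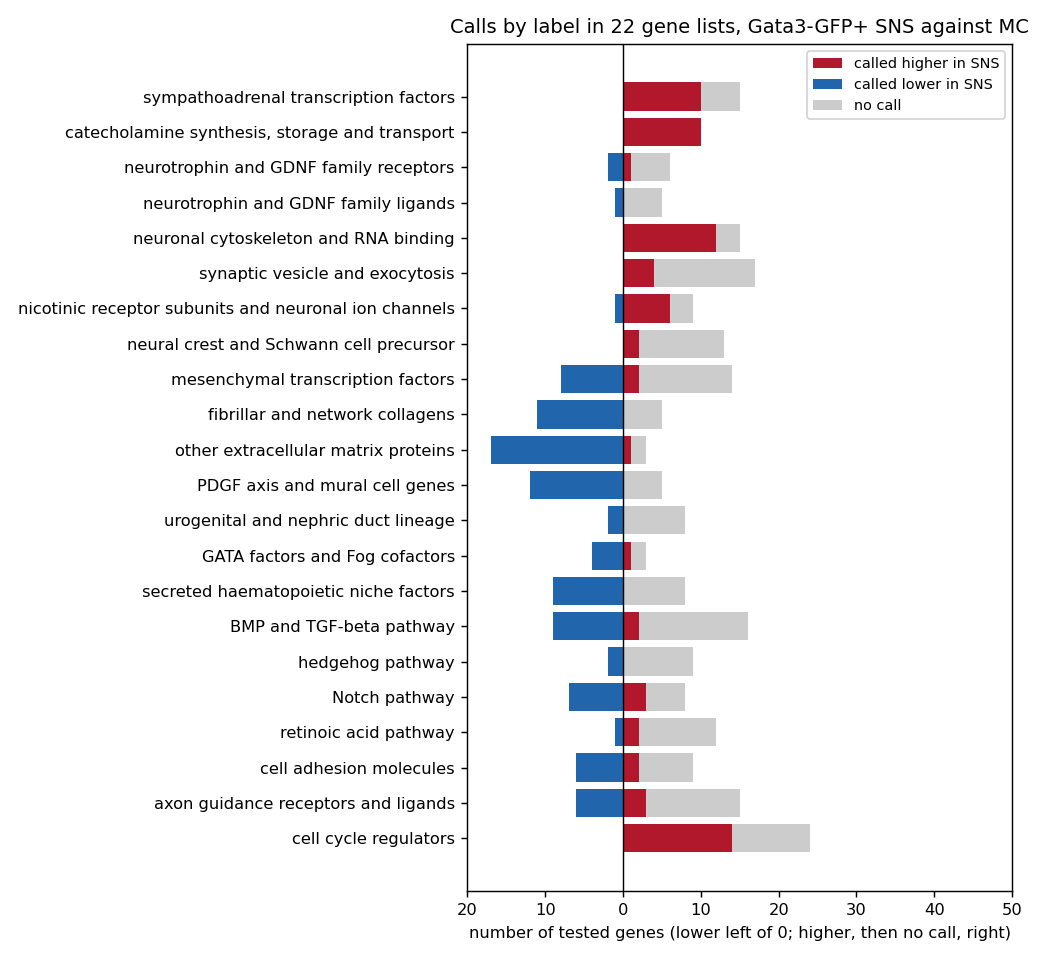
Number of tested genes (x axis) of 22 gene lists (y axis) called higher in *Gata3*+ SNS pools (red, right of 0), called lower (blue, left of 0) or with no call (grey, right of 0) by label. Catecholamine genes were all on the right with 10 of 10 called higher, and matrix proteins outside the collagens were nearly all on the left with 17 of 20 called lower. Over all genes tested, 12.7% were called higher and 12.9% lower.

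*Gata3* was expressed in both populations and was higher in SNS pools. Its level was 195 CPM (114 to 317) in SNS pools and 37.2 CPM (20.4 to 72.7) in MC pools. The groups did not overlap. The log2 fold change by label was 2.08 ± 0.29 (SE, adjusted p = 5.8e-07), and that of the kept pools 2.36 ± 0.16. *Gata3* lies at chr2:9857078-9890034 on the minus strand of mm10. In the GFP- pools it was at 40.7 CPM (11.6 to 96.8) in SNS and 9.33 CPM (2.57 to 19.7) in MC, so the *Gata3* level of GFP+ mesenchymal pools lay in the range of GFP- sympathetic pools.

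The sympathoadrenal transcription factors were higher in the SNS pools. Of 15 tested, 10 were called higher (66.7%, against 12.7% over all genes), none lower (12.9% over all genes) and 5 had no call. Their median log2 fold change was 2.08 by label and 2.36 in the kept pools, against -0.01 and -0.02 over all genes tested. In the kept pools 6 of the 15 had every SNS pool above every MC pool, *Gata3* among them, against 3.19% of all genes tested.

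*Tlx2*, a homeobox factor of peripheral autonomic neurons, reached 332 CPM (239 to 452) in SNS pools and at most 1.75 CPM in MC pools, and its change by label was 4.65 ± 0.82 (adjusted p = 2.5e-05). *Insm1*, a zinc finger factor of endocrine and sympathoadrenal differentiation, was at 98.9 CPM (54.4 to 165) against 0.227 (0 to 2.98). *Tfap2b*, an AP-2 factor of the neural crest, was at 91.5 CPM (61.5 to 149) against 0.382 (0 to 8.36). None of these overlapped between the groups. *Isl1*, a LIM homeobox factor of sympathetic and sensory neurons, behaved otherwise: SNS pools ranged from 28.0 to 791 CPM around 104, and the MC pools, at 77.3 CPM (39.6 to 114), lay inside that range. It was called higher by label with 1.6 ± 0.49 (adjusted p = 0.0096). *Sox11* was abundant in both, at 596 CPM (367 to 859) and 531 CPM (301 to 656), and differed by 0.35 ± 0.10 (adjusted p = 0.0054).

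**Figure D3:**
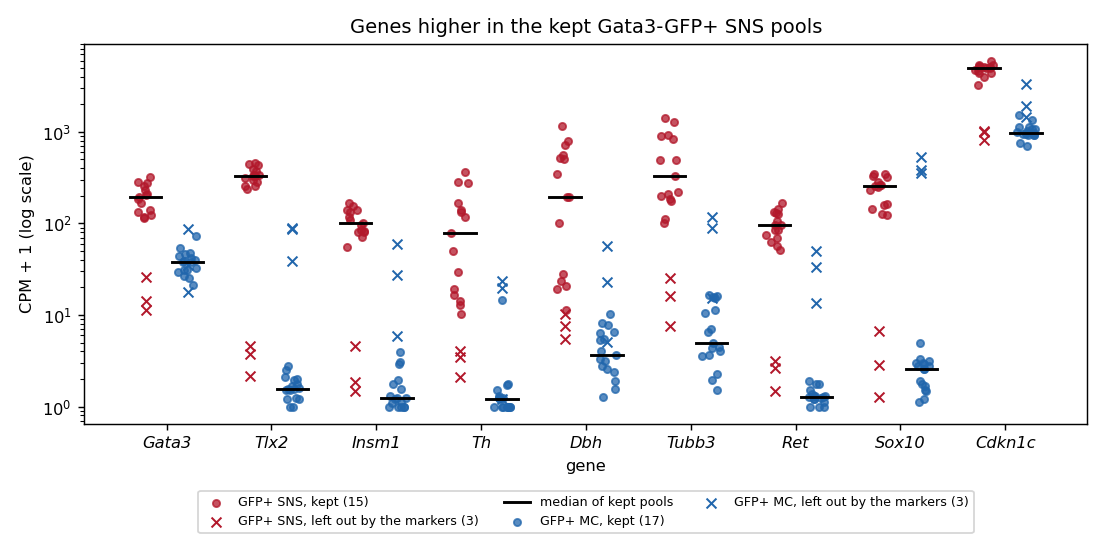
CPM plus 1 (y axis, log scale) of 9 genes (x axis) in each Gata3-GFP+ pool over the depth limit; red is SNS, blue MC, circles are kept pools, crosses pools left out by the markers, and black bars the medians of the kept pools. *Tlx2* stays between 239 and 452 CPM in SNS pools, *Th* and *Dbh* spread from 9.19 to 361 and from 10.2 to 1153 CPM, and the crosses labelled SNS lie below the circles of their label for all 9 genes.

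All 10 tested genes for the synthesis, storage and transport of catecholamines were called higher in SNS pools, against 12.7% of all genes tested. Their median log2 fold change was 4.91 by label and 6.17 in the kept pools. *Th* (chr7:142892752-142931128), the rate-limiting enzyme of catecholamine synthesis, was at 77.3 CPM (9.19 to 361) in SNS pools and at 0.221 CPM (0 to 13.7) in MC pools. The change by label was 4.94 ± 0.82 (adjusted p = 1.1e-05). *Dbh* (chr2:27165233-27183200), which converts dopamine to noradrenaline, was at 195 CPM (10.2 to 1153) against 2.67 (0.266 to 9.16), with 5.33 ± 0.73 by label (adjusted p = 5.5e-07). The highest and lowest SNS pools differed 39.2-fold for *Th* and 113-fold for *Dbh*, against 1.89-fold for *Tlx2*. Of the whole list, *Dbh* alone had every kept SNS pool above every kept MC pool, against 3.19% of all genes tested.

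*Ddc*, which makes dopamine from its precursor, was at 60.3 CPM (28.5 to 157) against 11.3 CPM (0.916 to 54.6), and the groups overlapped. *Gch1*, needed for the cofactor of *Th*, had a median of 18.2 CPM (0.788 to 122) against 0 (0 to 3.82). The vesicular transporter *Slc18a2* was at 27.0 CPM (2.49 to 118) against 7.68 (1.79 to 20.6), a change of 2.05 ± 0.37 by label (adjusted p = 3.8e-05). *Slc18a1*, the transporter of the chromaffin cell, was at 24.1 CPM (1.24 to 42.6) against 0 (0 to 2.20), with 5.15 ± 0.75 (adjusted p = 1.4e-06). Granule genes were more variable. *Chgb*, a chromogranin, ranged from 0.170 to 245 CPM around 21.8 in SNS pools and was at most 4.58 in MC pools, and *Cyb561*, the cytochrome of the granule membrane, ranged from 0 to 398 CPM around 66.3 against at most 4.54. *Maoa*, which breaks monoamines down, was found in both at 66.1 CPM (36.0 to 107) and 33.8 CPM (21.1 to 65.2). *Pnmt*, the enzyme of adrenaline synthesis, and the noradrenaline transporter *Slc6a2* had too few counts to be tested.

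The promoters of *Th* and *Slc18a2*, higher in SNS pools, and of the pericyte gene *Rgs5*, lower in SNS pools, are shown to set the start regions of the 2 gene groups side by side. Sequences are from RefSeq on GRCm38.p6, 5′ to 3′ on the gene's strand, from 250 to 20 bases before the annotated start. They cover chr7:142900015-142900245 on the minus strand for *Th*, chr19:59260628-59260858 on the plus strand for *Slc18a2* and chr1:169655251-169655481 on the plus strand for *Rgs5*. Capitals mark matches, on either strand, to TGACGTCA (the cyclic AMP response element), GATAA (the core of GATA sites) and ATTA (the core of homeodomain sites).
Th: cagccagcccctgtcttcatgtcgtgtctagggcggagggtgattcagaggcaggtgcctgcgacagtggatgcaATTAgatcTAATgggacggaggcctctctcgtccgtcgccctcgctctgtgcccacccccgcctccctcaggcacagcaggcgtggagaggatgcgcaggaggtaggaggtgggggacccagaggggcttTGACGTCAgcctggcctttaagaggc
Slc18a2: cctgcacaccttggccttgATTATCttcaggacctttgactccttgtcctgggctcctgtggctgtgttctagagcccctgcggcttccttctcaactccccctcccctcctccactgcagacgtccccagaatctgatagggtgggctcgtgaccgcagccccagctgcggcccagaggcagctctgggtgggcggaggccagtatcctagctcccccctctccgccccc
Rgs5: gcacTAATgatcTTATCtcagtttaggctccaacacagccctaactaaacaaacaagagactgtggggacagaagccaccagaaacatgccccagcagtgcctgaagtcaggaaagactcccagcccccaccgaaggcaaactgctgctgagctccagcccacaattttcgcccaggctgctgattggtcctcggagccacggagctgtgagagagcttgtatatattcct
*Th* held TGACGTCA from -45 to -38 and ATTA at 2 places, and no GATAA in this window. *Slc18a2* held ATTA and GATAA overlapping from -231 to -226, and *Rgs5* held each once without overlap. Of 32851 promoters of the same length, 1.30% held TGACGTCA, 21.5% GATAA and 53.6% ATTA, and a match is a description of letters only.

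Neuronal genes of the axon were higher in SNS pools as well. Of 15 genes for neuronal cytoskeleton and RNA binding, 12 were called higher (80%, against 12.7% over all genes) and none lower. Their median log2 fold change was 3.57 by label. Of 17 genes for vesicles and exocytosis, 4 were called higher (*Syt11*, *Scg3*, *Syp* and *Cplx1*), none lower, and the median was 0.47. That is 23.5% called, against 25.6% of all genes called either way and 12.7% called higher. *Tubb3* (chr8:123411424-123422015), the neuronal tubulin, was at 327 CPM (101 to 1429) against 3.95 (0.531 to 15.7), a change of 4.71 ± 0.66 by label (adjusted p = 8.2e-07). *Elavl4*, an RNA-binding protein of postmitotic neurons, was at 393 CPM (259 to 632) against 3.24 (0.790 to 11.7). *Gap43*, found in growth cones, was at 236 CPM (60.2 to 569) against 6.58 (0.764 to 34.6). None of these 3 overlapped between the groups.

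Neurofilament genes were detected in both populations. *Nefl* was at 188 CPM (69.9 to 479) against 7.24 (0.316 to 39.5), and 32.8% of its exon bases overlap exons on the opposite strand, so that its count is uncertain where strand was not used. *Nefm* was at 190 CPM (63.4 to 622) against 8.77 (0.105 to 75.6), with overlap. *Map1b*, a microtubule protein of growing axons, was found throughout at 485 CPM (339 to 817) and 205 CPM (151 to 353) and differed by 1.12 ± 0.19 (adjusted p = 1.7e-05). *Uchl1*, a neuronal deubiquitinase, was at 215 CPM (118 to 475) against 47.9 (14 to 67.0). *Stmn2* did not pass, at 81.7 CPM (6.04 to 511) against 43.5 (8.18 to 120), adjusted p = 0.023.

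In the vesicle list the sensor-like *Syt11* was at 216 CPM (164 to 300) against 44.0 (21.8 to 75), and the granin *Scg3* at 40.2 CPM (14.4 to 148) against 0 (0 to 3.72). Both were free of overlap. The core genes of vesicle fusion were low and close in the populations: *Snap25* was at 25.7 CPM (1.55 to 98.9) against 15.6 (0.382 to 33.9), adjusted p = 0.054. *Syt1*, the calcium sensor of release, was at 21.5 CPM (2.20 to 101) against 41.2 (1.46 to 79.4), adjusted p = 0.35.

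Subunits of the ganglionic nicotinic receptor, through which sympathetic neurons are driven by preganglionic fibres, were higher in SNS pools. In the list of nicotinic subunits and ion channels, 6 of 10 tested genes were called higher, 60% against 12.7% over all genes. The 1 called lower, 10% against 12.9% over all genes, is not read as a result about the list. No gene of the list was free of overlap, against 7.33% of all genes tested. *Chrna3* was at 30.1 CPM (0 to 143) against 0 (0 to 0.705), and its change by label of 7.48 ± 0.82 (adjusted p = 1e-08) was the largest rise of a list gene named here. *Chrnb4* and *Chrnb2*, its partner subunits, had medians of 16.6 CPM (0 to 69.4) and 21 CPM (0 to 88.4) in SNS pools and of 0 in MC pools. The subunit called lower was *Chrna7*, at 0.904 CPM (0 to 12.8) against 8.78 (1.24 to 24.4), with -2.09 ± 0.64 (adjusted p = 0.0093). *Cacna2d1*, an accessory calcium channel subunit, did not pass at 24.1 CPM (1.31 to 130) against 95.2 (57.4 to 137), adjusted p = 0.026.

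Of 8 tested receptors for neurotrophins and GDNF family ligands, *Ngfr* not counted, 1 was called higher and 2 lower. With 12.7% and 12.9% called over all genes, these counts are not read as a result about the family. The median log2 fold change was -0.25 by label and 0.83 in the kept pools. *Ret* (chr6:118151745-118197718), the signalling receptor for GDNF family ligands, was at 94.9 CPM (50.1 to 166) in SNS pools and at 0.270 CPM (0 to 0.906) in MC pools, with 3.98 ± 0.75 by label (adjusted p = 6.5e-05). *Gfra1*, a co-receptor of *Ret*, was at 50.9 CPM (21.9 to 68.5) against 0.732 (0 to 3.97). The groups did not overlap in the kept pools, but by label the adjusted p was 0.079, and the 3 left-out libraries labelled MC had 78.9 to 99.8 CPM.

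The neurotrophin receptor *Ntrk2* was, by contrast, a gene of the MC pools. It was at 196 CPM (124 to 351) there and at 0.509 CPM (0 to 1.58) in SNS pools, a change of -3.22 ± 0.86 by label (adjusted p = 0.0029) and of -8.58 ± 0.23 in the kept pools. *Ntrk3*, the receptor for neurotrophin-3, was at 58.1 CPM (18.6 to 85.7) in MC pools against 1.64 (0 to 19.8) in SNS pools. The ligand *Gdnf* was at 16.4 CPM (1.18 to 47.9) in MC pools and at 0 in 12 of 15 SNS pools, with at most 1.93 CPM. Its change by label was -6.36 ± 0.72 (adjusted p = 1.7e-08). The ligand *Gdnf* and its receptor *Ret* were thus found in different populations. Of 6 tested ligands, *Gdnf* alone was called, 16.7% against 12.9% called lower over all genes. *Bdnf* was at 6.37 CPM (1.86 to 20.3) against 21.6 (2.82 to 53.3), with an adjusted p of 0.014.

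Genes of the migrating neural crest and of Schwann cell precursors, the glial cells that also give rise to sympathoadrenal cells, were present in the SNS pools beside the neuronal genes. In the kept pools 10 of 13 had every SNS pool above every MC pool, against 3.19% of all genes tested. This is a description, since *Ngfr* and *Pdgfrb* chose these pools. The summed level of the 13 genes was 716 to 2019 CPM in SNS pools and 44.1 to 123 CPM in MC pools. By label, 2 of 13 were called higher, *Sox2* and *Pax3*, and 11 had no call. These 15.4% are close to the 12.7% called higher over all genes, and the count is not read as a result about the list. *Sox10* (chr15:79154908-79165240), the factor of the neural crest and glia, was at 253 CPM (122 to 350) against 1.55 (0.132 to 3.97), with 1.64 ± 0.88 by label (adjusted p = 0.15) and 7.42 ± 0.27 in the kept pools. The left-out libraries labelled MC had 356 to 529 CPM of *Sox10*, above every kept SNS pool. *Ednrb*, the endothelin receptor of the neural crest, was at 384 CPM (95.7 to 653) against 11.6 (2.47 to 33.1), and *Erbb3*, the neuregulin receptor of Schwann cell precursors, at 150 CPM (45.3 to 194) against 1.002 (0.263 to 2.78). *Sox2*, a factor of neural progenitors and glia, was at 35.1 CPM (19.6 to 59.7) against at most 0.295 and was called with 3.12 ± 0.76 (adjusted p = 0.0012). *Sox9* went the other way without a call, at 17.1 CPM (5.62 to 31.8) against 43.6 (11.9 to 90.1).

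Among the 15 kept SNS pools, *Gata3* varied 2.78-fold. Of 8 relations of other genes to it, computed on log2(CPM + 1), 7 are given here as a description and without a test, because the genes were chosen after the values were seen. The points are 15 pools of mixed cells that share their depth. Pearson's r and Spearman's rho with *Gata3* were 0.90 and 0.89 for *Tubb3*, 0.82 and 0.78 for *Th*, 0.76 and 0.82 for *Dbh*, and 0.80 and 0.82 for *Chrna3*.

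The glial genes given here had the opposite sign in the same pools, with r and rho of -0.85 and -0.89 for *Erbb3*, -0.81 and -0.85 for *Ednrb*, and -0.75 and -0.70 for *Sox10*. Without the 2 pools farthest from the median of *Gata3*, r was 0.89 for *Tubb3*, 0.76 for *Th*, 0.76 for *Dbh*, 0.77 for *Chrna3*, -0.83 for *Erbb3*, -0.80 for *Ednrb* and -0.74 for *Sox10*.

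**Figure D4:**
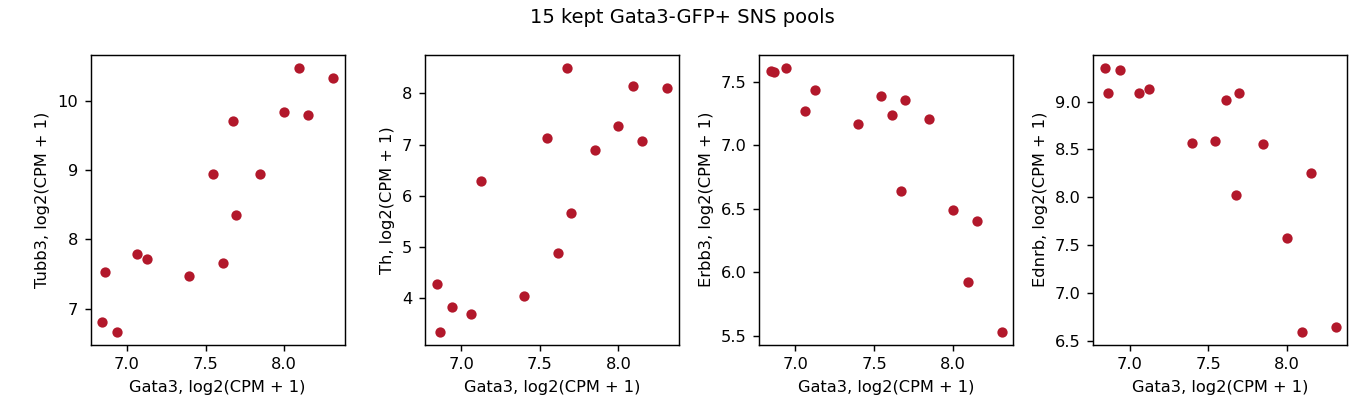
Log2(CPM + 1) of *Tubb3*, *Th*, *Erbb3* and *Ednrb* (y axes) against that of *Gata3* (x axis) in the 15 kept *Gata3*+ SNS pools, each point a pool. *Tubb3* (r = 0.90) and *Th* (r = 0.82) rise with *Gata3*, while *Erbb3* (r = -0.85) and *Ednrb* (r = -0.81) fall.

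On the mesenchymal side, transcription factors of mesoderm-derived connective tissue were lower in SNS pools. Of 22 tested, 8 were called lower (36.4%, against 12.9% over all genes), 2 higher (9.09%, against 12.7%) and 12 had no call. In the kept pools 14 of the 22 did not overlap in that direction, against 4.14% of all genes tested. The median log2 fold change was -1.30 by label and -3.82 in the kept pools. *Prrx1*, a homeobox factor of limb and trunk mesenchyme, was at 316 CPM (222 to 361) in MC pools and at 2.20 CPM (0.640 to 7.08) in SNS pools. By label its change was -2.19 ± 0.76 (adjusted p = 0.022), which missed the threshold. *Foxp2*, a forkhead factor, was at 422 CPM (315 to 546) against 14.8 (5.07 to 38.2), with -2.80 ± 0.50 by label (adjusted p = 2.8e-05). *Snai2*, a factor of epithelial-to-mesenchymal transition, was at 284 CPM (203 to 466) against 9.03 (3.28 to 31.4), with -2.43 ± 0.54 (adjusted p = 0.00042). *Foxc2*, which marks paraxial and vascular mesenchyme, was at 164 CPM (117 to 243) against 0.578 (0.213 to 4.12).

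Other factors of this list differed in degree. *Nr2f2* was at 264 CPM (155 to 424) in MC pools against 49.9 (23.7 to 77.1) in SNS pools, *Nr2f1* at 162 CPM (91.4 to 213) against 19.6 (8.62 to 29), and *Foxp1* at 160 CPM (120 to 215) against 46.6 (31.6 to 77.5). *Zeb2*, which acts in mesenchyme and in neural crest, was at 195 CPM (122 to 240) against 89.9 (39.0 to 148), with overlap and -1.15 ± 0.12 by label (adjusted p = 2.5e-09). The T-box factors *Tbx2* and *Tbx3* went against their list. *Tbx2* was at 100 CPM (67.0 to 127) in SNS pools against 4.13 (0 to 18) in MC pools, with 2.91 ± 0.53 (adjusted p = 4.2e-05), and *Tbx3* at 124 CPM (61.1 to 202) against 3.23 (0.211 to 15.5), with 3.34 ± 0.57 (adjusted p = 1.6e-05).

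The GATA factors divided between the 2 populations. Of 7 tested genes for GATA factors and their Fog cofactors, *Gata3* was called higher in SNS pools, or 14.3%, close to the 12.7% over all genes. Another 4 were called lower, or 57.1% against 12.9% over all genes. *Gata6*, a factor of heart, gut and vascular smooth muscle, was at 137 CPM (72.6 to 184) in MC pools and at 0.226 CPM (0 to 1.12) in SNS pools, with -4.81 ± 0.72 by label (adjusted p = 2.5e-06). *Gata5* was at 21.4 CPM (4.17 to 60.2) against 0 (0 to 2.03), and *Gata4*, needed for the gonad and heart, at 3.55 CPM (0 to 12.8) against 0 in 13 of 15 SNS pools. The cofactor *Zfpm2* was at 13.9 CPM (4.43 to 55.1) against 0.440 (0 to 4.12). *Gata3*+ MC pools thus held *Gata3*, *Gata5* and *Gata6* together, as pools of 20 cells. *Gata2* was at 15.4 CPM (10.6 to 30.6) in SNS pools against 0.764 (0 to 19.1) and missed the threshold (adjusted p = 0.011).

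The MC pools of the GFP- sort held less *Gata6*, at 28.9 CPM (10.7 to 39.7), none of them reaching the lowest GFP+ MC pool. Tested as the SNS minus MC difference in GFP+ pools less that in GFP- pools, *Gata6* differed by -5.33 (adjusted p = 1.5e-05) by label and by -7.59 in the kept pools. Of 17733 genes tested in this way 1713 were called, 9.66% in all, 5.17% above 0 and 4.49% below. *Rgs5*, a regulator of G-protein signalling in pericytes, was at 1157 CPM (704 to 1401) in GFP+ MC pools and at 181 CPM (96.6 to 415) in GFP- MC pools.

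Collagens were called lower in SNS pools for 11 of 16 tested genes, 68.8% against 12.9% over all genes, and higher for none. Their median log2 fold change was -1.93 by label and -3.23 in the kept pools. *Col3a1* was at 1408 CPM (1059 to 1687) in MC pools against 103 (24.9 to 205) in SNS pools. *Col1a1* (chr11:94936224-94953042) was at 1270.1 CPM (976 to 1708) against 5.47 (2.13 to 8.79), with -2.99 ± 0.86 by label (adjusted p = 0.0056) and -7.98 ± 0.17 in the kept pools. *Col1a2*, which forms the same fibril, was at 1179 CPM (818 to 1603) against 102 (38.7 to 134). The basement membrane chain *Col4a1* was at 409 CPM (314 to 632) against 18.5 (7.62 to 48.6), and *Col12a1* at 668 CPM (445 to 926) against 5.78 (1.09 to 15.4). *Col18a1*, named after its values were seen, was the list's gene with every kept SNS pool above every MC pool, at 106 CPM (78.7 to 147) against 38.1 (0.790 to 66.6), and was not called by label (adjusted p = 0.016).

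Among 20 other matrix proteins, 17 were called lower (85%, against 12.9% over all genes), 1 higher (5%, against 12.7%) and 2 had no call. In the kept pools 14 of 20 had every SNS pool below every MC pool, against 4.14% of all genes tested. The median log2 fold change was -2.23 by label and -3.48 in the kept pools. *Fn1*, fibronectin, was at 2320 CPM (1812 to 3054) in MC pools against 119 (30.6 to 236) in SNS pools, with -2.86 ± 0.46 by label (adjusted p = 7.3e-06). *Fbln5*, which assembles elastic fibres, was at 532 CPM (357 to 756) against 1.63 (0.792 to 4.91), and *Vcan*, a proteoglycan that steers neural crest migration, at 659 CPM (383 to 783) against 75.7 (32.9 to 119). *Sparc* and *Mfap2* were abundant in both: *Sparc* was at 2305 CPM (1835 to 2555) against 869 (325 to 1197), and *Mfap2* at 1348 CPM (902 to 1752) against 326 (253 to 401). The protein called higher was *Fbln1*, at 333 CPM (181 to 485) in SNS pools against 208 (107 to 331), a change of 0.47 ± 0.13 (adjusted p = 0.0042).

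*Postn*, periostin, had its largest level in another population. It was at 626 CPM (483 to 1084) in GFP+ MC pools and at 327 CPM (36.9 to 544) in GFP+ SNS pools, with -1.43 ± 0.24 by label (adjusted p = 1.1e-05). In GFP- pools it was at 803 CPM (523 to 1114) in SNS and at 214 CPM (95.2 to 397) in MC. The SNS median was therefore the lower of the pair in GFP+ pools and the higher in GFP- pools, and the difference of the 2 contrasts was -3.40 by label (adjusted p = 1.6e-12).

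Genes of the PDGF axis and of mural cells, the smooth muscle cells and pericytes around vessels, were lower in SNS pools. Of 17 tested, 12 were called lower (70.6%, against 12.9% over all genes) and none higher. *Pdgfrb* itself, on which the sort rests, is not counted. The smooth muscle actin *Acta2* (chr19:34241090-34255590) was at 4593 CPM (3149 to 8998) in MC pools and at 15.3 CPM (9.85 to 19.5) in SNS pools. Its change was -8.35 ± 0.17 in the kept pools, and by label -2.94 ± 0.91 with an adjusted p of 0.0102, just outside the threshold. The 3 left-out libraries labelled SNS had 1755 to 5022 CPM of *Acta2*. *Rgs5* (chr1:169655501-169695813) was at 11.49 CPM (1.36 to 103) in SNS pools, a change of -4.54 ± 0.64 by label (adjusted p = 8.2e-07). The contractile genes *Tagln*, at 832 CPM (408 to 1375) against 71.0 (25.5 to 170), and *Cnn1*, at 221 CPM (81.8 to 355) against 1.14 (0 to 5.08), followed. Of the exon bases of *Tagln*, 67.9% overlap exons on the opposite strand, so its count is uncertain.

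The pericyte proteoglycan *Cspg4* was at 156 CPM (104 to 205) in MC pools against 3.04 (0.158 to 12.4) in SNS pools, with -3.53 ± 0.59 by label (adjusted p = 1.3e-05). *Pdgfra*, the PDGF receptor of fibroblast precursors, was at 138 CPM (70.9 to 191) against 0.634 (0.169 to 3.49), so the *Gata3*+ MC pools held genes of fibroblast precursors and of mural cells alike. *Mcam* was closer, at 292 CPM (195 to 563) against 130 (55.3 to 189), and still did not overlap.

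**Figure D5:**
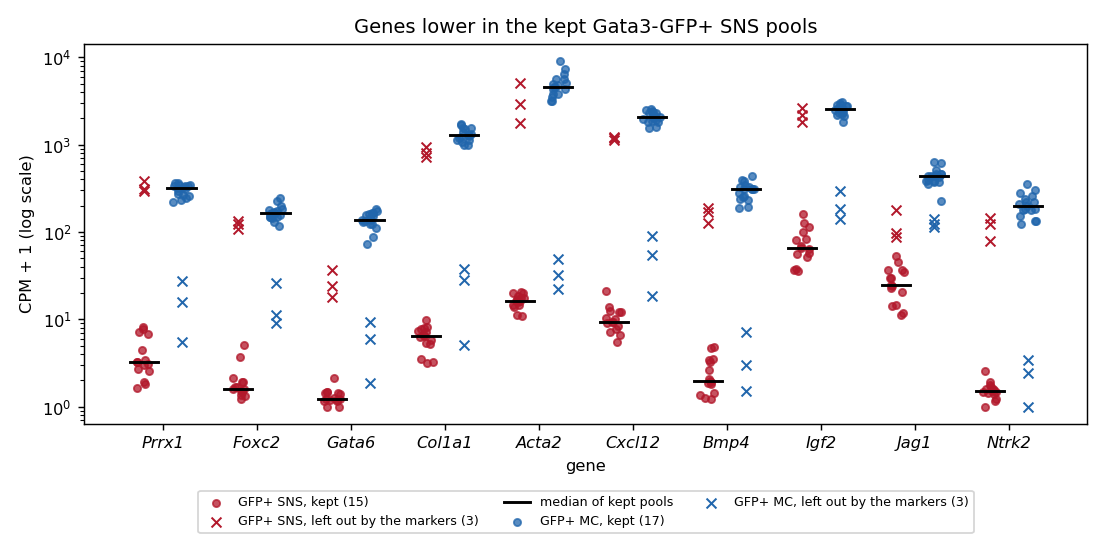
CPM plus 1 (y axis, log scale) of 10 genes (x axis) in each Gata3-GFP+ pool over the depth limit; red is SNS, blue MC, circles are kept pools, crosses pools left out by the markers, and black bars the medians of the kept pools. The kept groups are apart for all 10 genes, as for *Acta2* at 4593 against 15.3 CPM and *Cxcl12* at 2073 against 8.29 CPM, and the crosses lie outside the circles of their own label, above them for SNS and below them for MC.

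Secreted factors known for support of blood stem cells were higher in the MC pools. Of 17 tested, 9 were called lower in SNS pools (52.9%, against 12.9% over all genes) and none higher. Their median log2 fold change was -2.05 by label and -4.04 in the kept pools. *Cxcl12* (chr6:117168535-117181367), the chemokine that retains blood stem cells in their niche, was at 2073 CPM (1562 to 2546) in MC pools and at 8.29 CPM (4.52 to 20.0) in SNS pools, with -3.12 ± 0.83 by label (adjusted p = 0.003). *Igf2*, a fetal growth factor, was at 2521 CPM (1814 to 3049) against 64.8 (34.6 to 161), and its count is uncertain because other gene models on its strand cover 62.8% of its exons. *Bmp4*, the ligand that patterns the ventral aorta and induces sympathetic fate, was at 309 CPM (186 to 441) against 0.949 (0.226 to 3.76), with -3.22 ± 0.82 (adjusted p = 0.002). The Notch ligand *Jag1* (chr2:137081456-137116644) was at 431 CPM (226 to 624) against 23.9 (10.3 to 52.5), with -3.21 ± 0.32 (adjusted p = 2.4e-09). None of these 4 genes overlapped between the kept groups.

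*Mdk*, a heparin-binding growth factor, was strongly expressed in both, at 1247 CPM (987 to 1498) and 478 CPM (396 to 567). Its relative *Ptn* was at 440 CPM (168 to 814) in MC pools against 7.42 (3.01 to 13.7) and was not called by label (adjusted p = 0.019). *Igf1* was at 113 CPM (25.5 to 209) against 16.8 (2.65 to 45.5), with overlap and -2.29 ± 0.37 by label (adjusted p = 7.4e-06). *Dlk1*, which restrains blood progenitor growth, was at 152 CPM (74.3 to 323) against 56.4 (2.86 to 169), adjusted p = 0.12.

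In the BMP and TGF-beta pathway 2 of 25 tested genes were called higher (8.0%) and 9 lower (36.0%), against 12.7% and 12.9% over all genes. The Id genes, direct targets of BMP signalling, were high in both populations and moved apart: *Id1* was at 500 CPM (334 to 750) in SNS pools against 287 (187 to 402), a change of 0.74 ± 0.15 (adjusted p = 0.00019), and *Id2* at 868 CPM (628 to 1041) against 543 (399 to 941), a change of 0.50 ± 0.10 (adjusted p = 0.00016). *Id3* was at 1574 CPM (973 to 1939) against 2007 (1756 to 2514), with -0.37 ± 0.08 (adjusted p = 0.00052), but with ERCC scaling its change was 0.38 in the other direction. In the Notch pathway 3 of 15 were called higher (20.0%) and 7 lower (46.7%), against the same shares over all genes. The receptors *Notch2*, at 299 CPM (267 to 414) against 46.4 (13.6 to 82.2), and *Notch3*, at 106 CPM (76.8 to 139) against 19.1 (7.18 to 25.1), were higher in MC pools. Their targets *Hey2*, at 89.3 CPM (36.9 to 138) against 2.70 (0 to 9.65), and *Heyl*, at 202 CPM (142 to 320) against 62.3 (8.31 to 121), were also higher there, and none of these overlapped.

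The Notch genes of neurogenesis stood on the SNS side. *Dll3*, an inhibitory ligand found in cells that start neuronal differentiation, was at 152 CPM (77.6 to 365) against 1.32 (0 to 7.51), with 3.91 ± 0.71 (adjusted p = 3.8e-05). *Hes6*, which opposes *Hes1*, was at 223 CPM (122 to 351) against 22.5 (8.45 to 35.6), whereas *Hes1* was at 72.3 CPM (29.8 to 167) against 188 (102 to 330), with -0.97 ± 0.21 (adjusted p = 0.00037). *Dll1* was low, at 10.7 CPM (1.1 to 28.7) against 0 (0 to 5.46).

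Of 13 tested retinoic acid genes, 2 were called higher (15.4%) and 1 lower (7.69%), close to the shares over all genes. *Stra6*, which imports vitamin A, was at 115 CPM (38.5 to 151) in SNS pools against 7.70 (1.66 to 44.4), with 2.68 ± 0.39 (adjusted p = 1.2e-06). The receptors *Rara* and *Rarg* moved apart: *Rara* was at 74.2 CPM (51.8 to 93.0) against 37.2 (27.1 to 65.6), and *Rarg* at 3.80 CPM (0.456 to 11) against 25.4 (7.07 to 41.8). *Crabp1*, a retinoic acid binding protein, was at 74.6 CPM (48.8 to 159) against 601 (332 to 1586) without overlap in the kept pools, but by label its change was 0.06 ± 0.59 (adjusted p = 0.95). The 3 left-out libraries labelled SNS had 2873 to 4095 CPM of *Crabp1*, above every kept GFP+ MC pool, and the GFP- MC pools had 2731 CPM (1747 to 3255). In the hedgehog list, 2 of 11 genes were called lower (18.2%, against 12.9% over all genes) and none higher. The transcription factor *Gli3* was at 61.1 CPM (22.2 to 95.8) against 82.1 (50.5 to 147), adjusted p = 0.04.

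Of 15 tested adhesion molecules, 6 were called lower, or 40% against 12.9% over all genes. The 2 called higher, 13.3%, were at the share of 12.7% over all genes. *Cdh11*, the cadherin of mesenchyme, was at 772 CPM (516 to 1002) in MC pools against 25.2 (10.9 to 43.0) in SNS pools, with -2.76 ± 0.55 (adjusted p = 0.00014). *Nfasc*, which organises the axon's initial segment, was at 58.9 CPM (20.9 to 232) in SNS pools against 0.877 (0.211 to 3.01), with 4.42 ± 0.62 (adjusted p = 7.6e-07). *L1cam*, the adhesion protein of axon bundles, was at 87.0 CPM (58.6 to 119) against 0.442 (0 to 1.24), free of overlap, with an adjusted p of 0.020 by label. Among axon guidance genes, 3 of 21 were called higher (14.3%) and 6 lower (28.6%). *Robo2* was at 205 CPM (108 to 284) in SNS pools against 15 (1.18 to 46.2), with 2.28 ± 0.48 (adjusted p = 0.00025), and its ligand *Slit2* at 211 CPM (121 to 292) in MC pools against 20.6 (13 to 82.5), with -2.31 ± 0.31 (adjusted p = 3.1e-07). The receptor of the Robo family and its ligand thus had opposite directions. *Plxna4*, a semaphorin receptor of sympathetic axons, was at 68.4 CPM (47.2 to 116) against 1.08 (0 to 6.11), and the netrin receptor *Unc5c* at 16.7 CPM (0.386 to 64.8) against 248 (155 to 400) in MC pools.

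Cell cycle regulators were called higher in SNS pools for 14 of 24 tested genes, 58.3% against 12.7% over all genes, and lower for none. Their median log2 fold change was 0.75 by label and 0.96 in the kept pools. With ERCC counts for scaling 22 of the 24 were called higher, as were 7296 of the 16354 genes tested. *Cdkn1c* (chr7:143458339-143461050), an inhibitor of cyclin-dependent kinases found in cells that leave the cycle, was at 4994 CPM (3258 to 5898) in SNS pools against 974 (693 to 1542), with 1.80 ± 0.21 by label (adjusted p = 6.5e-08). Genes that drive the cycle were higher as well. *Ccnd1*, a cyclin of the G1 phase, was at 778 CPM (374 to 1025) against 32.9 (10.6 to 61.6), with 2.92 ± 0.45 (adjusted p = 3.5e-06). Its kinase *Cdk4* was at 1302 CPM (1189 to 1511) against 989 (866 to 1126), a small but non-overlapping difference of 0.32 ± 0.05 (adjusted p = 5.5e-06). *Pcna*, the clamp of DNA replication, was at 345 CPM (214 to 453) against 131 (72.7 to 285), and *Mcm6*, a helicase subunit, at 325 CPM (159 to 406) against 158 (102 to 346). *Mki67*, named after its values were seen, was at 105 CPM (53.5 to 211) against 87.7 (2.04 to 163) and did not pass (adjusted p = 0.12). Exons on the opposite strand overlap 30.7% of the exon bases of *Cdkn1c* and 23.4% of those of *Ccnd1*.

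Markers of other cells were low in both populations. The summed level of 10 endothelial markers was 12.5 to 78.2 CPM in SNS pools and 37.0 to 116 in MC pools, that of 11 blood markers 18.2 to 64.7 and 7.43 to 69.8, that of 10 erythroid markers 0 to 4.41 and 0.497 to 8.90, and that of 11 epithelial markers 0 to 25.7 and 4.86 to 30.03. The defining endothelial genes *Cdh5* and *Pecam1* and the blood gene *Ptprc* had medians under 1 CPM in both. Single genes of these lists were called in either direction. All 3 tested blood genes were called, against 25.6% of all genes tested. *Laptm5* was at 26.2 CPM (12.8 to 53.0) in SNS pools against 0 (0 to 0.764), *Coro1a* at 9.16 CPM (0.928 to 33.2) against 0 (0 to 7.70), and *Runx1* at 35.9 CPM (4.61 to 66.0) in MC pools against 0.570 (0 to 2.70). Of 7 tested endothelial genes, *Cldn5* was called higher (14.3%, against 12.7% over all genes), at 9.59 CPM (0 to 64.8) against 0 (0 to 1.86). *Esam* and *Erg* were called lower (28.6%, against 12.9%), *Erg* being at 6.15 CPM (1.85 to 24.2) in MC pools against at most 0.263. Urogenital genes summed to 3.40 to 21.6 CPM in SNS pools and to 18.6 to 136 in MC pools, with *Wt1* at 15 CPM (0.764 to 68.3) in the latter. The sum of the skeletal muscle and somite list was 10.2 to 29 against 309 to 2056 CPM, of which *Actc1*, an actin of heart and embryonic smooth muscle too, made up 279 to 2017 CPM in MC pools. The part of such cells in the differences was not tested.

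Across all genes, the 10 largest rises by label, among called genes that had 10 or more counts in 75% or more of the higher population's pools, were *Htr3b*, *Msx1*, *Syt17*, *Dbh*, *Lbx2*, *Slc10a4*, *Slc18a1*, *Slc35g1*, *Stmn3* and *Th*. The ranks of rises and falls rest on the fit by label, which includes the left-out libraries, and are not those of the kept pools. *Htr3b*, a subunit of the serotonin-gated channel, was at 15.6 CPM (9.06 to 38.5) against 0 (0 to 0.501), a change of 6.68 ± 0.65 (adjusted p = 2.3e-09). *Msx1*, a homeobox target of BMP, was at 30.1 CPM (3.42 to 53.1) against 0 (0 to 2.07), and the homeobox gene *Lbx2* at 32.4 CPM (8.12 to 51.0) against 0 (0 to 2.92). None of these 3 overlapped. *Slc10a4*, a transporter of monoamine vesicles, was at 24.1 CPM (0 to 106) against 0 (0 to 3.76). *Stmn3* was at 46.8 CPM (7.69 to 289) against 0.256 (0 to 8.69).

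By the same rule, the largest falls included *Esam*, *2610528A11Rik*, *Btc*, *Cntn4*, *Pi15*, *Chrm3*, *Asb12*, *Il1rapl2* and *Gdnf*. *Pi15*, a peptidase inhibitor, was at 52.9 CPM (9.43 to 123) against 0.152 (0 to 0.570), and *Cntn4*, an adhesion protein, at 26.3 CPM (6.78 to 90.4) against 0.181 (0 to 1.24). *Esam*, an adhesion molecule of endothelium that is also found on other cells, was at 18.4 CPM (3.38 to 82.6) against 0 in 14 of 15 SNS pools, with -9.36 ± 0.87 (adjusted p = 8.1e-10). *Btc*, a ligand of the EGF receptor, was at 16.3 CPM (1.75 to 43.1) against 0 in 11 of 15 SNS pools, and *Chrm3*, a muscarinic receptor, at 9.19 CPM (4.17 to 22.7) against 0 (0 to 0.263). In the left-out libraries of both labels *Esam* and *Btc* were at 0. Fitted changes of genes this close to 0 depend on the fit's prior count.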

How the data were processed

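Pools of 20 cells were sorted and made into libraries by Smart-seq2, with ERCC spike-in RNAs. The authors deposited raw read counts per gene, made with HTSeq 0.5.3p3. The study's methods name STAR as the aligner and the submitters' processing notes GSNAP with mm10, and whether strand was used is not given in the sources used here. The table held 46078 genes, 92 ERCC RNAs and 5 summary rows in 160 columns. In the Gata3-GFP+ SNS and MC pools over the depth limit, 20.4 to 32.9% of reads had no or an ambiguous gene, 17.1 to 24.7% were not aligned, and ERCC RNAs took at most 1.30%.

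Pools over 500000 counts on genes plus ERCC RNAs were used. SNS pools with *Pdgfrb* above *Ngfr* and MC pools with *Ngfr* above *Pdgfrb* were left out for levels and kept in the test by label. Genes that reached 10 counts in 5 or more pools were tested with edgeR 4.0.16 (R 4.3.3; TMM scaling, quasi-likelihood test, Benjamini-Hochberg adjustment, adjusted p under 0.01 and log2 fold change beyond 0.1). The scripts were tested on simulated data in which, unlike in the real pools, no library went against its label. Of 200 genes changed there, 192 were tested and 133 recovered, and 2 unchanged genes were called. Single values were compared with permutation tests of 100000 resamples. The alternatives were the kept pools, all pools, scaling by DESeq2, scran or ERCC size factors, other filters and thresholds, DESeq2 1.42.0, scanpy 1.11.5 and a fit of all SNS and MC populations. Positions are from GENCODE M21 (GRCm38) and promoters from RefSeq.

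The 27 gene lists, 406 genes in all, and the pools were chosen with earlier results of these data known. At most the 8 members of a list with the highest mean CPM in either population, members called against their list, and the 10 largest rises and falls were named by value, but 1 of the falls and some list members are not reported here. *Ngfr* and *Pdgfrb* stayed in the fit over all genes and were left out of all list counts.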

Additional observations from a re-analysis of the deposited data

Results flagged for a closer look

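For 131 members of the gene lists named in the text or by the rules, the SNS minus MC difference was compared between the GFP+ and the GFP- sort with an interaction term in edgeR's quasi-likelihood test. The members were named partly for their level or change in the GFP+ pools, which are one side of this difference, so their counts are a description: 63 were called by label, 40 above 0 and 23 below. Over all 17733 genes tested in this way 1713 were called, or 9.66%, with 5.17% above 0 and 4.49% below. The 20 genes called by label and beyond 3 on the log2 scale both by label and in the kept pools are given here, each with its value by label, its adjusted p and its value in the kept pools. Values and adjusted p by label include the libraries that went against the markers. Those labelled GFP- MC had *Tlx2* at 330 to 494 CPM. The part of these libraries in the differences was not tested.

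Among them, neuronal and catecholamine genes had larger differences in the GFP+ sort. *Th* differed by 7.95 (adjusted p = 7.5e-06) and by 3.44 in the kept pools, and *Gch1* by 8.62 (adjusted p = 8.4e-07) and by 3.76. *Chgb* differed by 9.55 (adjusted p = 4.7e-07), and by 4.53 in the kept pools. *Cyb561* differed by 8.55 (adjusted p = 8.2e-07) and by 5.04. Both had GFP- SNS medians under 4 CPM, 0.252 and 3.98. The nicotinic subunit *Chrna3* differed by 9.11 (adjusted p = 8.2e-07) and by 5.44, and *Chrnb4* by 5.61 (adjusted p = 0.00068) and by 4.91. *Tubb3*, at 106 CPM (7.82 to 289) in GFP- SNS pools, differed by 6.14 (adjusted p = 2.2e-05) and by 3.26. *Gap43* differed by 5.02 (adjusted p = 1.4e-06) and by 3.90, *Scg3* by 5.01 (adjusted p = 0.0011) and by 3.01, and *Cntn1* by 4.22 (adjusted p = 0.001) and by 3.71. *Tlx2*, at 55.3 CPM (8.04 to 116) in GFP- SNS pools, differed by 5.22 (adjusted p = 0.00074) and by 3.90. *Ret*, at 16.3 CPM (3.85 to 105) there, differed by 4.41 (adjusted p = 0.0035) and by 3.23. The vitamin A importer *Stra6*, whose GFP- medians were 12.8 CPM in SNS and 25.7 CPM in MC pools, differed by 3.93 (adjusted p = 5.7e-07) and by 3.38. *Coro1a*, an actin regulator of blood cells, differed by 5.16 (adjusted p = 0.00012) and by 4.64.

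Differences below 0 were mostly of genes higher in GFP+ MC pools. *Gata6* differed by -5.33 (adjusted p = 1.5e-05) and by -7.59 in the kept pools. *Gata5* differed by -4.58 (adjusted p = 0.0023) and by -3.76. *Gata4* differed by -7.89 (adjusted p = 6.3e-07) and by -8.54, with GFP- medians of 12.3 CPM in SNS and 0.249 CPM in MC pools, the other way round from GFP+ pools. *Gdnf* differed by -7.51 (adjusted p = 5.9e-07) and by -6.95, with GFP- medians of 3.67 and 0 CPM. *Esam* differed by -9.74 (adjusted p = 2.7e-06) and by -5.15. *Postn* differed by -3.40 (adjusted p = 1.6e-12) and by -3.18.

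*Gata3* itself, called by label with a difference of 2.51 (adjusted p = 0.0023), differed by 0.20 in the kept pools.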

How the results depend on the processing

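The 2080 higher and 2110 lower calls stayed within 1.5 times of these counts in 10 alternatives, for example 3020 and 3137 in the kept pools and 2208 and 2384 with DESeq2. They became 7296 and 932 with ERCC size factors, and 8977 and 1226 with ERCC size factors in the kept pools, an alternative chosen after seeing the data. A log2 limit of 1 left 800 and 1154. The interaction of GFP sort and population, with 917 calls above 0 and 796 below, became 1423 and 443 with ERCC size factors. Over all pools without a depth limit, the difference in detected genes was -1100 (p = 0.274, permutation test). Of 147 genes compared, 21 passed the threshold in the kept pools and not by label, and 1 the reverse, which is a description because the markers chose those pools. With ERCC size factors the sign turned for *Id3* (0.38; kept pools 0.50), *Syt1* (0.039; 0.090), *Gli3* (0.22; 0.31), *Gas1* (0.49; 0.54) and *Crabp1* (-0.076; -2.26). *Crabp1* also turned in the kept pools (-3.07), over all pools (-0.016) and with scanpy (-1.78). The cause was not tested. With scran size factors all 147 genes kept direction and side of the threshold. No paired analysis was possible because the columns carry no pool number. Levels under about 1 CPM rest on few counts, at 2646033 counts on genes in the shallowest kept pool, and say little about absence.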
